A study of Bos taurus with 2 samples.

Results

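The growth regulators DLK1, PEG3, PEG10, MEST, PLAGL1, NDN, SGCE and GRB10 are expressed mainly from 1 parental copy in at least some tissues of mammals. They were picked by name from the deposited feature list of cultured bovine satellite cells, where each symbol has 1 Ensembl identifier, and are 8 of its 21867 genes. Each of the 8 had at least 1 molecule counted, as did 16816 genes in all. IGF2 and CDKN1C, which belong to the same family of genes, were not included.

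The cells came from the longissimus muscle of 1 male Holstein calf, 2 weeks of age, from which satellite cells were isolated with pronase and differential centrifugation, with no sort on surface markers stated. They grew for 1 week in DMEM with 10% FBS, with no treatment, so that all cells share 1 genotype and 1 culture. Of these same cells 2 droplet-based 3′ libraries were made, named replicates 1 and 2 here, and the authors divided the cells into 15 clusters. Clusters 1, 2, 3, 4, 5, 8 and 12 were called myogenic, with 3 and 12 as MYOG-positive myocytes, 4 as PAX7-positive and 5 and 8 as PAX3-positive satellite cells, clusters 7 and 9 were called fibro-adipogenic progenitors, and the other 6 were given no identity. With 1 calf, differences between the libraries show only how repeatable the preparation was, and nothing is known here of other animals.

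In genomic imprinting, DNA methylation set down in the egg or the sperm marks a gene so that the copy from the mother or from the father is silent in the offspring. Many imprinted genes act on fetal and placental growth, and several of them are known to be active in muscle precursor cells and to be regulated as muscle and fat cells differentiate. Paternally expressed genes such as DLK1, PEG3, PEG10, MEST, PLAGL1, NDN and SGCE are well known in this group. GRB10 is known for expression from the maternal copy in some tissues, which differ between species. The counts used here do not separate the parental copies, so they give the sum of both.

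Each unique molecular identifier (UMI) stands for 1 captured RNA molecule. Replicate 1 held 9939 cells and 145631299 UMIs, replicate 2 held 9157 cells and 137818568 UMIs, and 27 cell barcodes occurred in both. The median depth ran from 12929 UMIs per cell in cluster 1 to 23011 in cluster 9 over 10 clusters, but was 5398.5, 2513.5, 1631, 1389 and 647 in clusters 10, 14, 13, 7 and 15. These last 5 are called the shallow clusters below. MYOG was highest in cluster 12 (18.1 and 19.2 UMIs per 10000 in replicates 1 and 2) and in cluster 3 (6.61 and 6.76). PDGFRA, the defining marker of fibro-adipogenic progenitors, was at 1.63 and 1.53 in cluster 9 and at 1.23 and 1.74 in cluster 7, against means of at most 0.502 in the other clusters. The summed level of the 5 fibro-adipogenic markers DCN, LUM, PDGFRA, PPARG and ZNF423 was 15.3 in cluster 7 and 14.2 in cluster 9. It was highest, at 21.6 and 20.4, in cluster 8, which the authors call satellite cells. Most of the sum in cluster 8 came from DCN and LUM, at means of 15 and 5.66. PDGFRA, PPARG and ZNF423 were at means of 0.267, 0.0412 and 0.0684 in cluster 8. Each of them was lower there than in clusters 7 and 9 in both libraries. The 5 myocyte markers ACTA1, MYH3, MYL1, MYMK and MYOG summed to 10.0 and 8.13 in cluster 7 and to a mean of 0.509 in cluster 9, and the part of these transcripts in the values of cluster 7 was not tested. The glial markers SOX10 and FOXD3 were at 0 UMIs, and the immune, adipocyte and endothelial markers summed to at most 0.0155 in any library of any cluster. Other markers were present. The smooth muscle markers ACTA2 and MYH11 summed to means from 3.23 in cluster 10 to 9.13 in cluster 8. The pericyte markers NOTCH3 and MCAM summed to 1.71 in cluster 7, and to between 0.0717 (cluster 12) and 0.801 (cluster 13) in the others. Most of these sums came from ACTA2, at a mean of 9.12 in cluster 8, and NOTCH3, at 1.69 in cluster 7. MCAM was at 0.0153 in cluster 7, from 3 UMIs.

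Levels are UMIs per 10000 UMIs, from the sum over a cluster's cells in 1 library. Between 2 sets of cells, the test was edgeR's quasi-likelihood test on the 2 library sums of each, after TMM normalization, which corrects for differences in RNA composition. The p-values were adjusted by Benjamini and Hochberg over all genes tested, and values under 0.05 were called. Differences are log2 ratios ± a standard error. This error is the size of the log2 ratio divided by the square root of the test's F statistic. Since the authors' clusters were built from these counts, a call says that 2 sets of cells differ by more than 2 library preparations do, and adds no outside evidence for a cluster.

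The 8 genes were captured at very different depths. DLK1 was counted with 433 UMIs in 220 cells (1.15% of all cells) and PEG3 with 1226 UMIs in 1096 cells (5.74%). The other genes were counted with 36456 UMIs for MEST, 29681 for GRB10, 23707 for PEG10, 12833 for PLAGL1, 10481 for SGCE and 9811 for NDN, and were seen in 36.2% (NDN) to 65.1% (GRB10) of the cells. All 8 genes were seen together in 4 cells, and in 1503 cells (7.87%) none was seen. Free RNA in droplets gives UMIs in cells that do not express a gene. MYH3, which fibro-adipogenic progenitors should lack, had a UMI in 11.9% of the cells of cluster 9. Free RNA and doublets were not told apart there. MYH3 is far more abundant, with 19255 UMIs in cluster 12 alone, so its share sets no floor for DLK1 and PEG3. Their highest shares per cluster were 2.49% (cluster 1) and 11.4% (cluster 11). What free RNA adds to them was not measured, so these shares are not read as shares of expressing cells.

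The expression of the 8 genes varied to very unequal extents over the 10 clusters outside the shallow ones. The ratio of the highest to the lowest mean level was 53.2 for DLK1, 6.23 for SGCE, 4.62 for PEG3, 3.85 for MEST, 3.41 for PEG10, 2.8 for GRB10, 2.19 for PLAGL1 and 1.45 for NDN. For DLK1 the lowest level rests on 2 UMIs. When all 15 clusters were put in the order of their levels, the libraries of 13 of the 14 neighbouring pairs overlapped for DLK1, 11 for NDN, 9 for PEG3 and PLAGL1, 8 for MEST and SGCE, 6 for PEG10 and 5 for GRB10. The order of clusters is thus best resolved for GRB10 and PEG10.

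**Figure D1:**
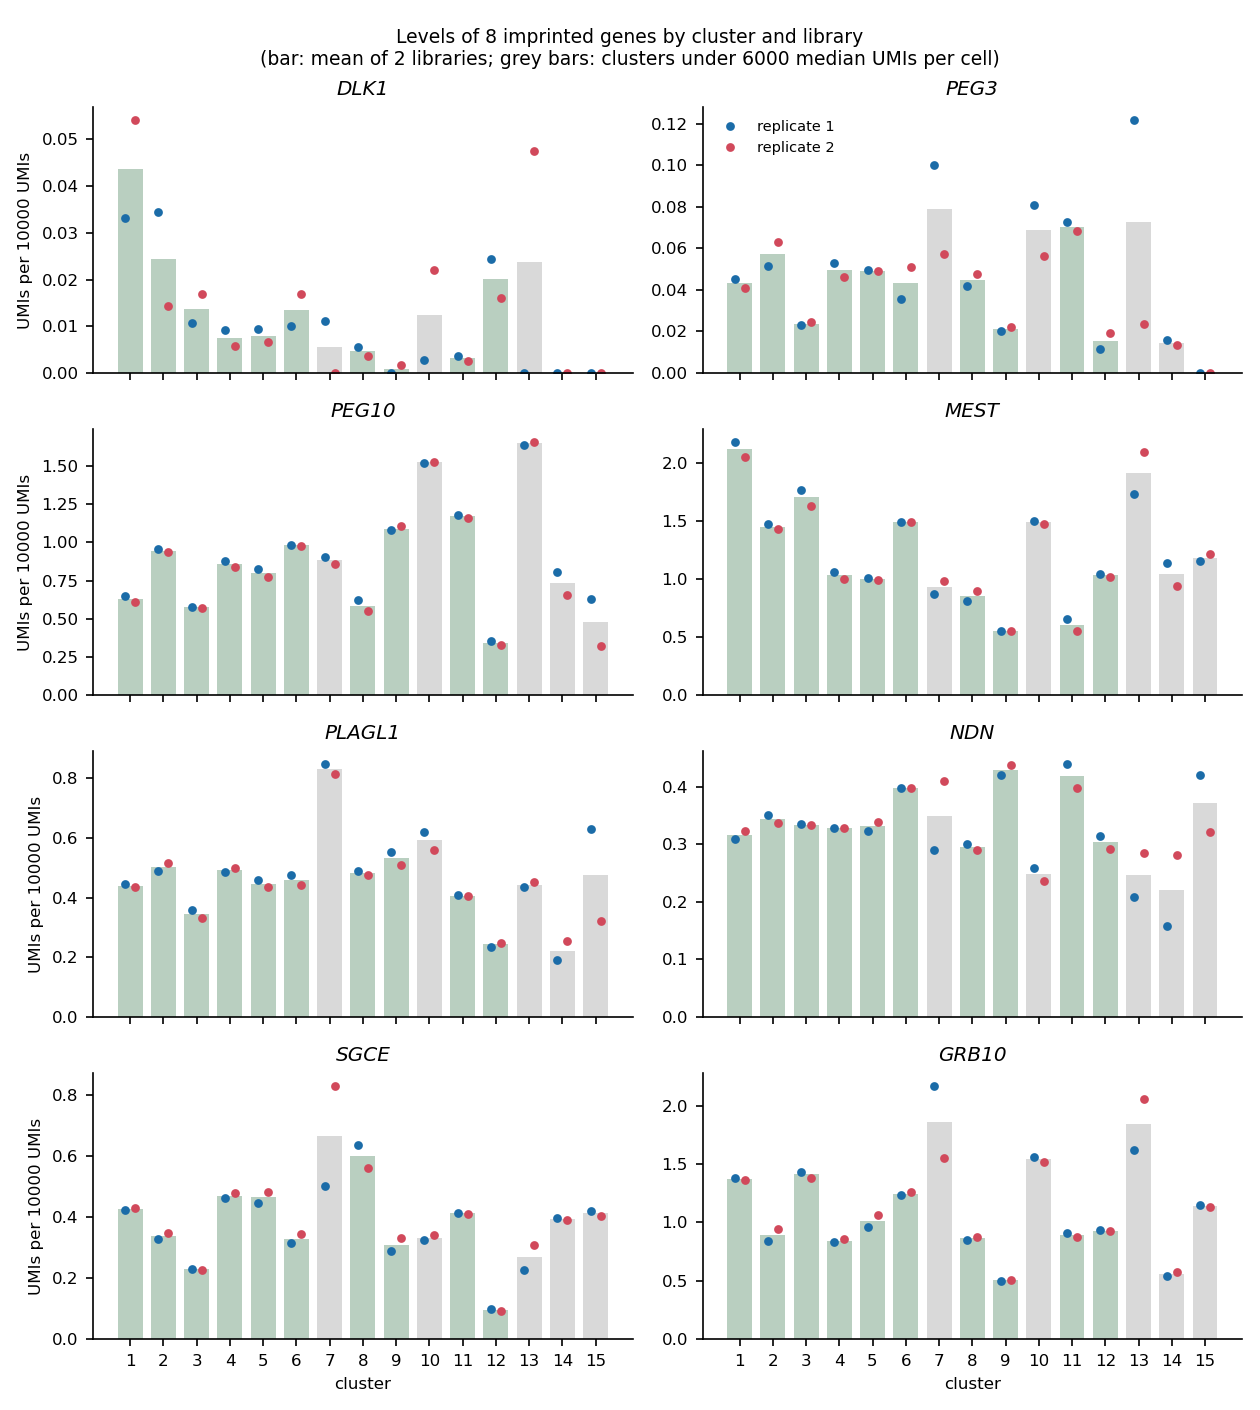
Level of each of the 8 genes (UMIs per 10000 UMIs, vertical axis from 0, own scale for each gene) in the 15 clusters (horizontal axis). Points are the 2 libraries, bars their mean, and grey bars the 5 shallow clusters. DLK1 is highest in cluster 1, MEST in clusters 1 and 13, SGCE is lowest in cluster 12, and NDN stays within a narrow band over the deep clusters.

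Each gene was compared in each cluster with all other cells, which gave 120 tests of the 8 genes. Of these, 29 were called higher and 36 lower. Over all genes, 14.9% of the tests were called higher and 17.1% lower. Apart from DLK1 and PEG3, the 8 genes had at least 9811 UMIs each, while 9067 of the 16816 genes with a UMI reached 1000. The shares of all genes here and below were not matched for abundance, and its part in the differences was not tested. The 15 comparisons share cells, since each cluster is part of the cells that the others are compared with.

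**Figure D2:**
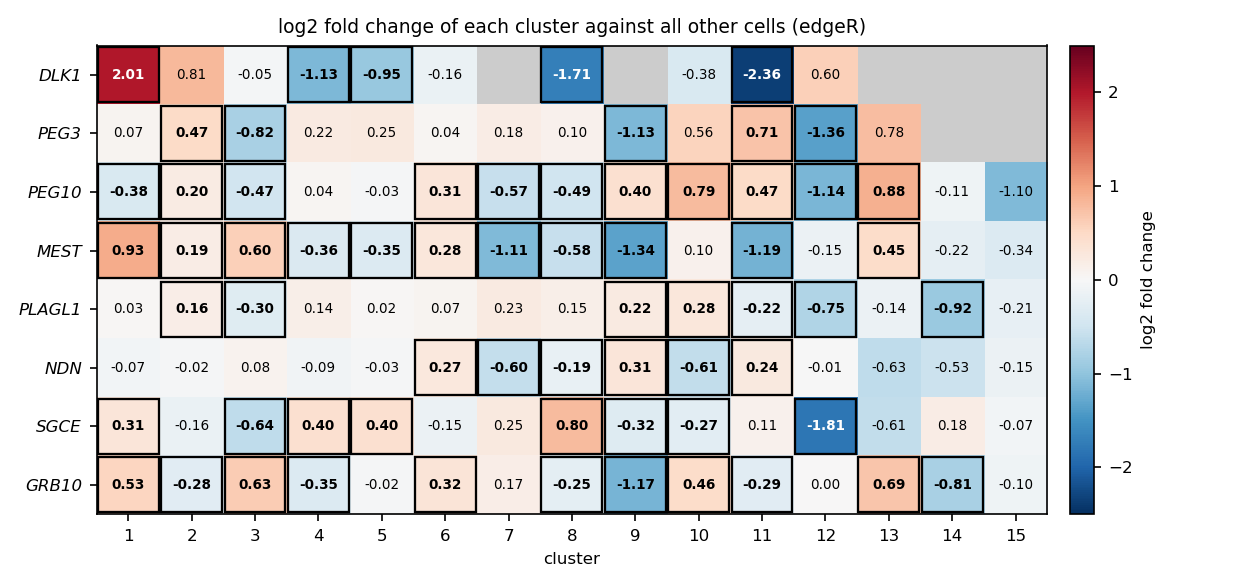
Heat map of the log2 ratio of each gene (rows) in each cluster (columns) to all other cells, from edgeR, with red above and blue below 0. Boxes mark called values, and fields are grey where the cluster held 3 UMIs or fewer. MEST is called in 11 clusters, lowest in cluster 9 (−1.34), and SGCE is at −1.81 in cluster 12.

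DLK1 is a transmembrane protein with EGF-like repeats, related to the Notch ligands, that is known to hold back adipocyte differentiation and to act in muscle growth. Its level was 0.0332 and 0.0542 UMIs per 10000 in cluster 1 and 0.00566 and 0.00368 in cluster 8, in replicates 1 and 2. In cluster 3 it was 0.0106 and 0.017, and in cluster 12 it was 0.0244 and 0.016. Cluster 1 lay above clusters 8 and 3 in both libraries, and above cluster 12 as well. DLK1 (ENSBTAG00000037899) was called higher in cluster 1, with a log2 ratio of 2.01 to all other cells and a standard error of 0.266 (edgeR adjusted p = 0.0035). It was called lower in clusters 4, 5, 8, 9 and 11.

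Few molecules lie behind these values of DLK1. Cluster 1 held 147 DLK1 UMIs, cluster 2 held 97, cluster 8 held 8, cluster 11 held 5, cluster 9 held 2 and clusters 14 and 15 held 0. In cluster 9, 2 of the 1080 cells had a UMI, and the ratio of UMI shares to all other cells was 0.0452 with an exact 95% interval of 0.00546 to 0.164, which covers counting error only. The level in cluster 2 was 0.0345 in replicate 1 and 0.0143 in replicate 2, and the log2 ratio to all other cells was 0.81 (edgeR adjusted p = 0.208).

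DLK1 molecules were also gathered in few cells. Of the 220 cells with DLK1, 149 held 1 UMI, 28 held 2, 20 held 3 and 4 held 4. The remaining 19 cells held 5 to 16 UMIs and made up 152 of the 433 UMIs (35.1%). They came from both libraries, 10 from replicate 1 and 9 from replicate 2, and 9 of them were in cluster 1, 5 in cluster 2, 2 each in clusters 6 and 12 and 1 in cluster 3. All 5 of cluster 2 were in replicate 1. A cell with PEG3, the next rarest gene, held 1.12 PEG3 UMIs on average, against 1.97 for DLK1.

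These 19 cells were selected by their DLK1 count, so their other genes are given as a description. MYOD1, the master regulator of myoblasts, had a UMI in 19 of 19, at 4.25 UMIs per 10000 (exact interval 3.53 to 5.07), against 5.59 in other cells mixed in the same proportions of clusters. This interval covers counting error only and not the spread between the 19 cells, so it does not show a difference in MYOD1. MYOG had a UMI in 8 of 19, at 5.25 against 3.09. The mix was weighted by numbers of cells, while the level of the 19 cells was taken over their summed UMIs. The 2 of them in cluster 12, where MYOG was highest, held 28658 and 32622 UMIs, against a median of 1.16e+04 over the 19. Cluster 12 thus weighs more in the 19 cells than in the mix, and its part in the MYOG difference was not tested. MEST was at 1.55 against 1.74 and PEG3 at 0.0346 against 0.0429, the last from 1 UMI. Without the 19 cells, the level of DLK1 in cluster 1 was 0.0187 and 0.0302, and DLK1 was still called higher there, with a log2 ratio of 1.69 (edgeR adjusted p = 0.00685). DLK1 was then no longer called lower in clusters 4, 5 and 8, where the log2 ratios were −0.46, −0.30 and −1.07 (edgeR adjusted p = 0.296, 0.546 and 0.0602).

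The calls in clusters 4 and 5 were also lost when 1 library was left out, though the ratios stayed below 0. Against −1.13 in cluster 4 the log2 ratio was −0.84 without replicate 2 of the cluster (edgeR adjusted p = 0.0671), and −1.21 and −1.08 without replicate 1 or 2 of the other cells (edgeR adjusted p = 0.0513 and 0.0811). Against −0.95 in cluster 5 it was −0.73 without replicate 2 of the cluster, and −1.02 and −0.91 without replicate 1 or 2 of the other cells (edgeR adjusted p = 0.175, 0.127 and 0.198).

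**Figure D3:**
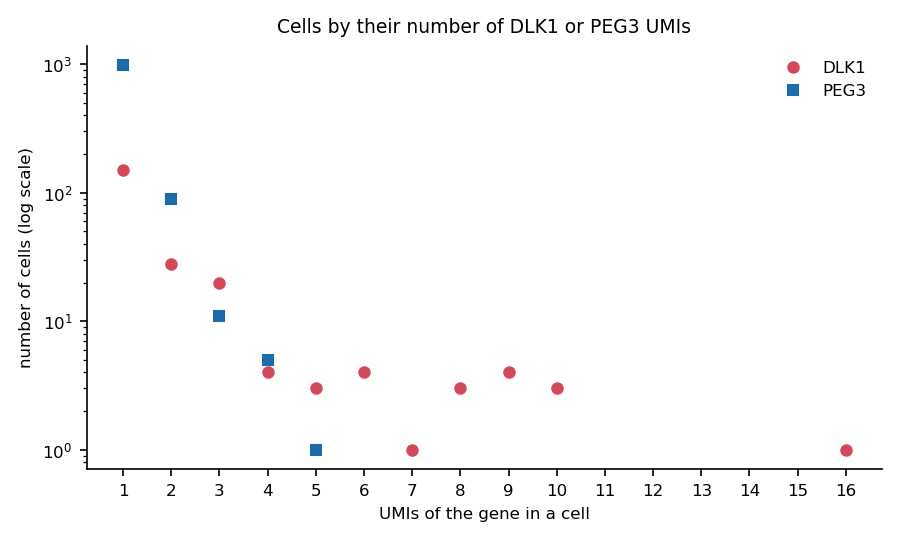
Number of cells (vertical axis, log scale) by the UMIs of DLK1 (circles) or PEG3 (squares) that a cell held (horizontal axis). PEG3 ends at 5 UMIs, in 1 cell, while DLK1 goes on to 16, with 19 cells at 5 or more.

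GRB10 is an adapter protein that binds the activated insulin and IGF1 receptors and dampens their signal. Its level was 1.38 and 1.36 in cluster 1, 1.43 and 1.38 in cluster 3, 1.56 and 1.52 in cluster 10, as well as 1.62 and 2.06 in cluster 13. In cluster 9 it was 0.499 and 0.505, the lowest of the 15 clusters, and in cluster 8 it was 0.848 and 0.875. The highest mean was in the shallow cluster 7, with 2.17 and 1.55, which was not called. The libraries of clusters 1, 3, 10 and 13 all lay above those of clusters 8 and 9. GRB10 (ENSBTAG00000017086) was called lower in cluster 9, by −1.17 ± 0.0477 (edgeR adjusted p = 1.01e-05), and also in clusters 2, 4, 8, 11 and 14. Of these, the call in cluster 14 was lost when 1 library was left out. GRB10 was called higher in clusters 1, 3, 6, 10 and 13. The log2 ratios were 0.53 ± 0.0361 in cluster 1 (edgeR adjusted p = 0.000326), 0.63 ± 0.0499 in cluster 3 (edgeR adjusted p = 0.000226) and 0.69 ± 0.112 in cluster 13 (edgeR adjusted p = 0.00769).

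SGCE encodes epsilon-sarcoglycan, a membrane protein of the dystrophin-associated complex. Its level was 0.635 and 0.561 in cluster 8, 0.461 and 0.478 in cluster 4, 0.445 and 0.482 in cluster 5, and 0.424 and 0.43 in cluster 1. The MYOG-positive clusters lay below all of these, with 0.229 and 0.227 in cluster 3 and 0.0992 and 0.0927 in cluster 12. These were the lowest of the 15 clusters. Cluster 12 did not overlap with any other, and cluster 3 overlapped with the shallow cluster 13 alone (0.227 and 0.308). SGCE (ENSBTAG00000021282) was called lower in cluster 12, by −1.81 ± 0.0849 (edgeR adjusted p = 1.28e-05), and in cluster 3, by −0.64 ± 0.0533 (edgeR adjusted p = 0.000274). It was also called lower in clusters 9 and 10. It was called higher in cluster 8, with 0.80 ± 0.0773 (edgeR adjusted p = 0.000722), and in clusters 1, 4 and 5. The highest mean was in the shallow cluster 7, with 0.502 and 0.829, which overlapped with cluster 8 and was not called.

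MEST, a predicted hydrolase of the endoplasmic reticulum that is known for its rise in expanding fat tissue and its role in fetal growth, was called higher in 5 clusters and lower in 6. Its level was 2.18 and 2.05 in cluster 1, 1.76 and 1.63 in cluster 3, and 1.73 and 2.09 in cluster 13. It was 0.809 and 0.897 in cluster 8, 0.654 and 0.551 in cluster 11, and 0.547 and 0.552 in cluster 9. The first 3 clusters lay above the last 3 in both libraries. MEST (ENSBTAG00000017223) had log2 ratios to all other cells of 0.93 ± 0.0483 in cluster 1 (edgeR adjusted p = 0.000129), −1.19 ± 0.0797 in cluster 11 (edgeR adjusted p = 0.0003) and −1.34 ± 0.0551 in cluster 9 (edgeR adjusted p = 1.04e-05). The higher calls of MEST in clusters 2, 6 and 13 were lost when 1 library was left out. Without replicate 1 of the cluster the log2 ratios were 0.19 and 0.26 in clusters 2 and 6. Without replicate 2 of the other cells they were 0.15 and 0.23. In cluster 13 the ratio was 0.32 without replicate 2 of the cluster. Without cells under 2000 UMIs it was 0.61 and not called (edgeR adjusted p = 0.12). In cluster 12 the log2 ratio of MEST was −0.15, which was not called (edgeR adjusted p = 0.0702) but was with the library as a block (edgeR adjusted p = 0.00433).

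PLAGL1 and PEG3 are zinc-finger transcription factors, both known as inhibitors of cell growth. The level of PLAGL1 (ENSBTAG00000026523) was 0.446 and 0.435 in cluster 1, 0.359 and 0.331 in cluster 3, and 0.236 and 0.249 in cluster 12. Each of these clusters lay apart from the others in both libraries. PLAGL1 was called lower in cluster 12, by −0.75 ± 0.0711 (edgeR adjusted p = 0.00024), and in cluster 3, by −0.30 ± 0.0645 (edgeR adjusted p = 0.0101). PLAGL1 was also called lower in clusters 11 and 14 and higher in clusters 2, 9 and 10, each call lost when 1 library was left out. Its level of 0.848 and 0.812 in cluster 7 was the highest, but the log2 ratio there was 0.23 after TMM (edgeR adjusted p = 0.0959) and 0.88 without it, when it was called.

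PEG3 (ENSBTAG00000054572) was lowest in the same clusters and in cluster 9 among the deep ones. Its level was 0.0114 and 0.0192 in cluster 12, 0.0204 and 0.0222 in cluster 9, and 0.0232 and 0.0244 in cluster 3, against 0.0729 and 0.0682 in cluster 11. It was called lower there, with log2 ratios of −1.36 ± 0.245, −1.13 ± 0.142 and −0.82 ± 0.126 (edgeR adjusted p = 0.00404, 0.000931 and 0.00293). Cluster 11 was called higher, with 0.71 ± 0.126 (edgeR adjusted p = 0.0102). Cluster 2 was also called higher, a call that was lost when 1 library was left out. Cluster 12 held 19 PEG3 UMIs and cluster 15 held 0, where a count of 0 allows up to 3. In cluster 10 the log2 ratio of 0.56 was not called (edgeR adjusted p = 0.0632) but was with the library as a block (edgeR adjusted p = 0.0336).

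NDN, a protein of the MAGE family that binds E2F factors and is known to restrain cell division, varied least. Its level ran from 0.3 and 0.291 in cluster 8 to 0.421 and 0.437 in cluster 9 over the deep clusters. Cluster 11 was at 0.44 and 0.397 and overlapped with cluster 9. NDN (ENSBTAG00000002186) was called higher in cluster 9, by 0.31 ± 0.0542 (edgeR adjusted p = 0.00374), and lower in cluster 10, by −0.61 ± 0.0802 (edgeR adjusted p = 0.00116), where it was at 0.259 and 0.237. It was also called higher in clusters 6 and 11 and lower in clusters 7 and 8, of which cluster 7 turned to 0.05 without TMM. Each of these 4 calls was lost when 1 library was left out. Without replicate 1 of the cluster, the edgeR adjusted p was 0.0544 in cluster 6, 0.198 in cluster 11 and 0.0839 in cluster 7, and without replicate 2 of the cluster it was 0.0519 in cluster 8. Without replicate 1 or 2 of the other cells it was 0.0822 and 0.0973 for cluster 6, 0.101 and 0.112 for cluster 11, 0.177 and 0.16 for cluster 7, and 0.15 and 0.0993 for cluster 8 (edgeR).

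PEG10, which derives from a retrotransposon, is known for its part in placenta formation. Its 4 highest levels were in clusters that the authors do not call myogenic. Of these, clusters 13 and 10 had MYOD1 at 7 and 6.5 and at 5.76 and 5.44. MYOD1 was at 1.3 and 1.41 in cluster 11 and at 0.678 and 0.464 in cluster 9. The other shallow clusters 7, 14 and 15 had lower mean PEG10 levels of 0.882, 0.733 and 0.476. The level of PEG10 was 1.64 and 1.66 in cluster 13, 1.52 and 1.53 in cluster 10, 1.18 and 1.16 in cluster 11 and 1.08 and 1.11 in cluster 9. It was 0.647 and 0.607 in cluster 1, 0.576 and 0.572 in cluster 3, and 0.356 and 0.329 in cluster 12. The first 4 clusters did not overlap with one another or with any other cluster. PEG10 (ENSBTAG00000053735) was called higher in cluster 13, by 0.88 ± 0.0907 (edgeR adjusted p = 0.00141), in cluster 10, by 0.79 ± 0.0585 (edgeR adjusted p = 0.000113), and in cluster 9, by 0.40 ± 0.0523 (edgeR adjusted p = 0.00114). It was called lower in cluster 12, by −1.14 ± 0.0718 (edgeR adjusted p = 4.08e-05). PEG10 was also called higher in clusters 2, 6 and 11 and lower in clusters 1, 3, 7 and 8. Of these, the calls in clusters 2 and 7 were lost when 1 library was left out.

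The authors ordered the myogenic clusters along a path from cluster 8 through 1 and 3 to 12 and another from cluster 8 through 5 and 4 to 2. The 8 genes were compared at each of these 6 steps to see where along the paths their levels change. Neighbouring steps share a cluster, so a high value in a shared cluster moves both. At the steps into the myocytes several of the genes were called lower and none higher. Cell cycle genes also differ along the paths. The summed level of the 5 G2/M genes CCNB1, CDK1, CENPF, MKI67 and TOP2A was 35 in clusters 2 and 4. It was between 1.23 and 3.9 in clusters 1, 3, 5, 8 and 12. The 5 S phase genes MCM5, MCM6, PCNA, RRM2 and TYMS summed to 8.98, 8.7 and 7.71 in clusters 2, 4 and 5. In clusters 1, 3, 8 and 12 they summed to 2.62, 2.68, 2.33 and 1.45. The part of both sets of genes in the steps was not tested.

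From cluster 8 to cluster 1, 3 of the 8 genes rose and 1 fell, while 17.2% of all genes tested were called higher and 16.9% lower. DLK1 rose by 3.22 ± 0.439 (edgeR adjusted p = 0.000888), MEST by 1.35 ± 0.0694 (edgeR adjusted p = 4.85e-06) and GRB10 by 0.71 ± 0.0548 (edgeR adjusted p = 4.18e-05). SGCE fell by 0.45 on the log2 scale (edgeR adjusted p = 0.00241). The libraries of clusters 1 and 8 did not overlap for any of these 4 genes. PEG3, PEG10, PLAGL1 and NDN were not called, with log2 ratios from −0.10 to 0.13. Without the 19 cells of highest DLK1, the DLK1 ratio was 2.38 and was called (edgeR adjusted p = 0.00526).

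From cluster 1 to cluster 3, where MYOG rises, 0 of the 8 genes were called higher and 5 lower, while 21.1% of all genes tested were called higher and 19.1% lower. None was called higher by DESeq2 either, and 0 were higher at an unadjusted p under 0.05 with edgeR. DLK1 fell by 1.63 on the log2 scale (edgeR adjusted p = 0.00698), SGCE by 0.87 (edgeR adjusted p = 8.44e-05), PLAGL1 by 0.31 (edgeR adjusted p = 0.0103) and MEST by 0.28 (edgeR adjusted p = 0.00949). PEG3 fell by 0.82 (edgeR adjusted p = 0.0113), a call that was lost without replicate 1 of cluster 1 (−0.73, edgeR adjusted p = 0.0728) and with DESeq2 (adjusted p = 0.106). GRB10, NDN and PEG10 were not called, with log2 ratios of 0.07, 0.12 and −0.09.

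From cluster 3 to cluster 12, 0 genes were again called higher and 5 lower, while 18.2% of all genes tested were called higher and 15.6% lower. DESeq2 called 0 higher, and 0 were higher at an unadjusted p under 0.05 with edgeR. SGCE fell by 1.15 on the log2 scale (edgeR adjusted p = 0.00017), PEG10 by 0.65 (edgeR adjusted p = 0.000602), MEST by 0.62 (edgeR adjusted p = 0.00026) and GRB10 by 0.50 (edgeR adjusted p = 0.000462). PLAGL1 fell by 0.41 (edgeR adjusted p = 0.0104), and lost the call without replicate 1 of cluster 3 (−0.34, edgeR adjusted p = 0.0567) and with DESeq2 (adjusted p = 0.099). The median log2 ratio was −0.52 over the 8 genes and −0.02 over all genes. DLK1, PEG3 and NDN were not called, with log2 ratios of 0.65 ± 0.41, −0.54 ± 0.343 and −0.04 ± 0.086.

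On the other path, from cluster 8 to cluster 5, 3 of the 7 genes tested were called higher and 1 lower, while 16.3% of all genes tested were called higher and 12.2% lower. DLK1, with 20 UMIs in cluster 5 and 8 in cluster 8, was not tested. PEG10 rose by 0.45 ± 0.0769 (edgeR adjusted p = 0.00371). MEST and GRB10 each rose by 0.23 (edgeR adjusted p = 0.0296 and 0.0328). These calls were lost when 1 library was left out, MEST without replicate 1 or 2 of cluster 5 or replicate 1 of cluster 8 (edgeR adjusted p = 0.153, 0.0901 and 0.149) and GRB10 without replicate 2 of cluster 5 or replicate 1 or 2 of cluster 8 (edgeR adjusted p = 0.203, 0.101 and 0.0647). SGCE fell by 0.36 (edgeR adjusted p = 0.014), which was not called without replicate 1 of cluster 5 (−0.33, edgeR adjusted p = 0.0549) or of cluster 8 (−0.26, edgeR adjusted p = 0.0738).

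From cluster 5 to cluster 4, 0 of the 8 genes were called higher and 1 lower, while 9.16% of all genes tested were called higher and 7.28% lower. DESeq2 called 0 higher, and 0 were higher at an unadjusted p under 0.05 with edgeR. The lower gene was GRB10, with −0.28 ± 0.0598 (edgeR adjusted p = 0.0207), and it was not called without replicate 1 or 2 of cluster 4 or replicate 2 of cluster 5 (edgeR adjusted p = 0.0823, 0.0532 and 0.0665). The other 7 log2 ratios lay between −0.12 and 0.11.

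From cluster 4 to cluster 2, 2 of the 8 genes were called higher and 1 lower, while 14.5% of all genes tested were called higher and 15.7% lower. MEST was at 1.47 and 1.43 in cluster 2 against 1.06 and 1 in cluster 4, and rose by 0.47 ± 0.0495 (edgeR adjusted p = 0.000845). SGCE fell by 0.49 on the log2 scale (edgeR adjusted p = 0.00149), from 0.461 and 0.478 to 0.329 and 0.348. DLK1 rose by 1.68 ± 0.5 (edgeR adjusted p = 0.0447), but this call was lost without replicate 1 of cluster 2 (0.92, edgeR adjusted p = 0.185), without replicate 1 or 2 of cluster 4 (2.05 and 1.41, edgeR adjusted p = 0.0781 and 0.115) and without the 19 cells of highest DLK1 (0.93, edgeR adjusted p = 0.078). PEG10, with 0.13, was not called (edgeR adjusted p = 0.0925) but was with the library as a block (edgeR adjusted p = 0.0052).

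Over the 6 steps SGCE was called lower in 5 and higher in 0. It was also called lower in 5 by DESeq2, and had 0 steps that were higher at an unadjusted p under 0.05 with edgeR. Its remaining step, from cluster 5 to cluster 4, had a log2 ratio of −0.01. MEST was called higher in 3 steps and lower in 2. NDN was called in 0 of the 6 steps, with log2 ratios from −0.04 to 0.17, 0 steps at an unadjusted p under 0.05 with edgeR and 0 called by DESeq2.

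**Figure D4:**
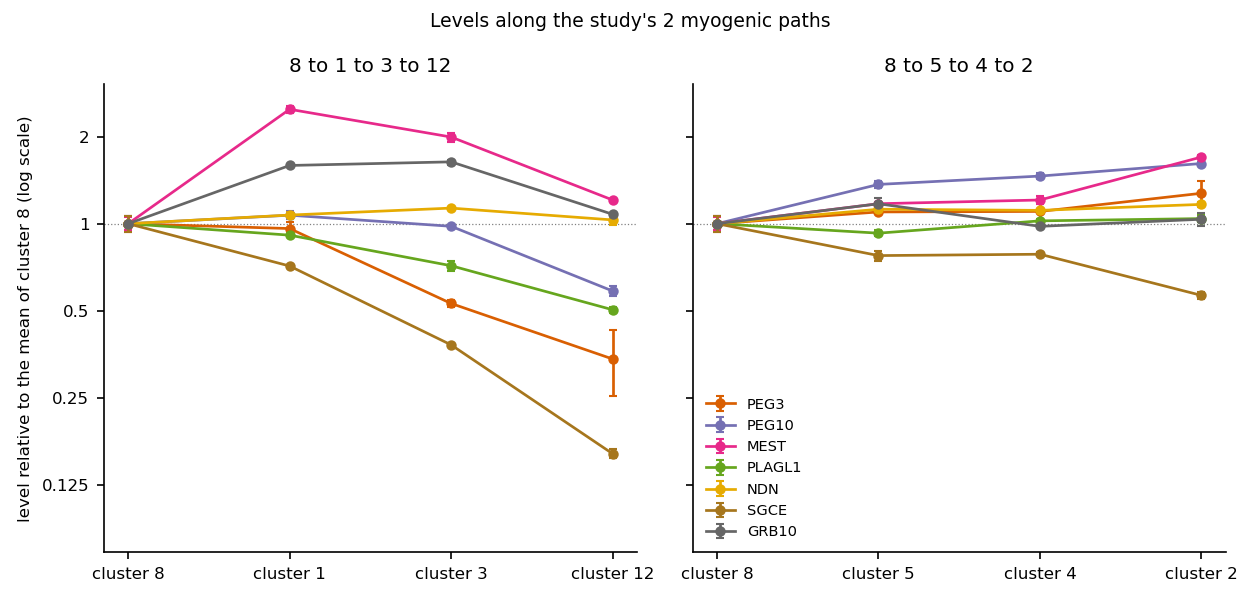
Mean level of 7 of the genes relative to that of cluster 8 (vertical axis, log scale) along the 2 paths of myogenic clusters (horizontal axes), with bars that reach to the 2 libraries. DLK1, with under 30 UMIs in 4 of these 7 clusters, is left out. SGCE goes down from cluster 8 to cluster 12, MEST goes up to cluster 1 and then down, and NDN stays nearly level.

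Cluster 9, with PDGFRA and with PPARG, the master regulator of fat cell formation, at 0.299 and 0.276, was compared with the 7 myogenic clusters together. All 8 genes were called, 3 higher and 5 lower, while 28.9% of all genes tested were called higher and 27.6% lower. MEST was at 0.547 and 0.552 in cluster 9 against 1.43 and 1.37, a log2 ratio of −1.37 ± 0.046 (edgeR adjusted p = 1.9e-05), and GRB10 was at 0.499 and 0.505 against 1.06 and 1.08, a log2 ratio of −1.12 ± 0.041 (edgeR adjusted p = 2.53e-05). PEG3 was lower by −1.03 ± 0.139 (edgeR adjusted p = 0.00194) and SGCE by −0.32 ± 0.0675 (edgeR adjusted p = 0.0102). DLK1 had 2 UMIs in cluster 9 and 371 in the myogenic clusters, a ratio of UMI shares of 0.0404 (exact interval 0.00487 to 0.147). The libraries of cluster 9 lay below the library sums over the 7 myogenic clusters for each of these 5 genes. This did not hold for every single myogenic cluster. SGCE, at 0.288 and 0.331 in cluster 9, was lower in clusters 3 and 12 and overlapped with cluster 2 (0.329 and 0.348). PEG3, at 0.0204 and 0.0222 in cluster 9, was lower in cluster 12 (0.0114 and 0.0192).

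In the other direction, PEG10 was at 1.08 and 1.11 in cluster 9 against 0.738 and 0.707, a log2 ratio of 0.58 ± 0.0445 (edgeR adjusted p = 0.000256). NDN was higher by 0.37 ± 0.0452 (edgeR adjusted p = 0.00133). PLAGL1 was higher by 0.26 ± 0.0584 (edgeR adjusted p = 0.0128), a call that was lost without replicate 1 or 2 of the myogenic clusters (0.24 and 0.21, edgeR adjusted p = 0.056 and 0.0837). Cluster 9 was deeper than the myogenic clusters and its MYOD1 level was 0.678 and 0.464.

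Clusters 9 and 7, both called fibro-adipogenic progenitors, differed in 5 of the 7 genes tested, 2 higher and 3 lower in cluster 9, while 29.9% of all genes tested were called higher and 26.6% lower. GRB10 was at 2.17 and 1.55 in cluster 7 and differed by −1.37 ± 0.146 (edgeR adjusted p = 0.000204). PEG10 was higher in cluster 9 by 0.82 ± 0.108 (edgeR adjusted p = 0.000571). Both kept their call without TMM, where they were −1.88 and 0.31 and the median of all genes moved from 0.05 to −0.46. On that scale MEST (−0.77) and PLAGL1 (−0.64) were also called lower, where the TMM values were −0.26 and −0.13. DLK1, with 2 UMIs in cluster 9 and 1 in cluster 7, was not tested.

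The 3 other calls between clusters 9 and 7 were lost when 1 library was left out, in each case with the direction kept. PEG3 was lower by −1.33 (edgeR adjusted p = 0.0247), with 16 UMIs in cluster 7. Its log2 ratio was −1.30 and −1.41 without replicate 1 or 2 of cluster 9 and −0.93 without replicate 1 of cluster 7 (edgeR adjusted p = 0.143, 0.118 and 0.208). SGCE was lower by −0.64 (edgeR adjusted p = 0.0396) and by −0.22 without replicate 2 of cluster 7 (edgeR adjusted p = 0.423), and it was also not called without replicate 1 or 2 of cluster 9 (−0.56 and −0.75, edgeR adjusted p = 0.164 and 0.0796). NDN was higher by 0.77 (edgeR adjusted p = 0.00786), by 0.72 without replicate 2 of cluster 9 (edgeR adjusted p = 0.0563) and by 0.26 without TMM, where it was not called.

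Shares of cells were compared after each cell had been thinned to 1000 UMIs, which left out the 290 shallower cells of 1298 in cluster 7, 92 of 602 in cluster 13 and 294 of 317 in cluster 15, for which no share is given. A MEST UMI then remained in 18.6% of the cells of cluster 1 and 4.86% of those of cluster 9, against 83.9% and 54.3% before thinning. For SGCE these shares were 6% in cluster 8 and 0.956% in cluster 12, against 54.1% and 16.9% before thinning. MYH3 remained in 0.859% of the cells of cluster 9, but what free RNA adds to the shares of SGCE was not measured. In the shallow cluster 13, GRB10 was seen in 24.8% of the cells before thinning and 16.3% after it, and in the deep cluster 9 in 60.1% before and 4.57% after. The mean number of the 8 genes seen in a thinned cell ran from 0.279 in cluster 12 to 0.574 in cluster 13.

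Over the 15 clusters, the levels did not follow 1 pattern shared by all 8 genes, though some pairs were alike. The values below are Pearson correlations of log2 levels over 15 clusters, which share the 2 libraries and differ in depth, and are given as a description. The highest among the 28 pairs were 0.75 for DLK1 and MEST, 0.67 for PEG3 and PEG10, and 0.65 for MEST and GRB10. DLK1 and MEST had 0.38 in replicate 1 and 0.80 in replicate 2. The log2 levels include a pseudocount of 0.01, which is close in size to the levels of DLK1. Clusters 7, 9, 13, 14 and 15 held 1, 2, 2, 0 and 0 DLK1 UMIs. All correlations of DLK1, here and below, thus rest on few molecules. The lowest was −0.44 for MEST and NDN. Over the 10 deep clusters the highest were 0.88 for DLK1 and MEST and 0.84 for MEST and GRB10. PLAGL1 and SGCE also had 0.84, against 0.60 over the 15 clusters. PEG10 and NDN had 0.80, against −0.07 over the 15 clusters. The lowest over the deep clusters was −0.49 for DLK1 and NDN.

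SGCE and PEG10 lie next to each other in the RefSeq annotation of a later assembly, ARS-UCD2.0, which was used only for the order of genes, and are known to share 1 imprinted domain. Their levels had a correlation of 0.28 over the 15 clusters and a rank correlation of −0.11. Over the 10 deep clusters the correlation was 0.58, and without clusters 3 and 12, where both were lowest among the deep clusters, it was −0.59 over 13 clusters. They differed in direction in clusters 9 and 10, where PEG10 was called higher and SGCE lower, and in clusters 1 and 8, where SGCE was called higher and PEG10 lower. The call of SGCE in cluster 10 was lost without any 1 of the 4 library sums, with an edgeR adjusted p from 0.0588 to 0.141. DLK1 lies next to MEG3, and NDN next to MAGEL2 with MKRN3 beyond it.

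Among the 9067 genes with at least 1000 UMIs, the gene whose log2 level followed MEST most closely over the 15 clusters was MYOD1, with a correlation of 0.90, and 0.89 over the 10 deep clusters. MYOD1 was high in clusters 13 (7 and 6.5) and 2 (7.02 and 6.42), and low in clusters 8 (0.882 and 0.902) and 9. The closest genes were SCPEP1 for SGCE (0.97), ZNF618 for PEG3 (0.97), ZDHHC6 for PEG10 (0.94), UBN1 for PLAGL1 (0.94), POGLUT1 for NDN (0.93), LDLRAD3 for GRB10 (0.91) and LIMCH1 for DLK1 (0.81). These are the highest of many values and were not tested.

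**Figure D5:**
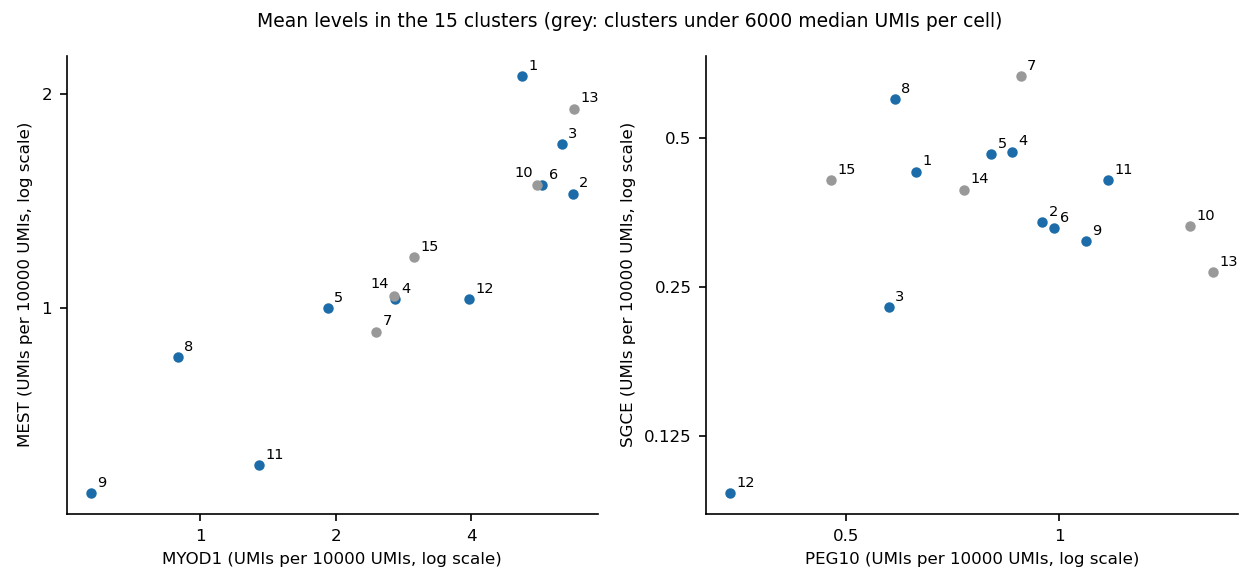
Mean levels (UMIs per 10000 UMIs, log scales) of MEST against MYOD1 at the left and of SGCE against PEG10 at the right, with 1 numbered point per cluster and the 5 shallow clusters in grey. MEST and MYOD1 are both low in clusters 8, 9 and 11 and high in clusters 1, 2, 3 and 13. SGCE and PEG10 are both lowest in cluster 12. Their correlation is 0.28 over the 15 clusters and 0.58 over the 10 deep clusters. It is −0.59 without clusters 3 and 12, which were left out after seeing the data.

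A list of 41 other genes known to be imprinted in at least 1 mammal was read beside the 8. Of these, 33 were in the feature list, with 34 identifiers since GNAS has 2, and 2 of these identifiers had 0 UMIs. In 378 tests of 28 identifiers against all other cells, 61 were called higher and 73 lower, which is near the 14.9% and 17.1% of all genes given above, with a median log2 ratio of −0.09. From cluster 3 to cluster 12, 8 of the 20 identifiers tested were higher and 2 lower, with a median of 0.25, beside 18.2% and 15.6% of all genes. From cluster 1 to cluster 3, 6 of 20 were higher and 4 lower, beside 21.1% and 19.1% of all genes.

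NNAT, a small membrane protein known from neurons and fat cells, rose along the first path. Its level was 0.134 and 0.135 in cluster 8, 0.55 and 0.608 in cluster 1, and 0.819 and 0.833 in cluster 3. The log2 ratio was 2.14 ± 0.0856 from cluster 8 to 1 (edgeR adjusted p = 1.74e-06) and 0.55 from cluster 1 to 3 (edgeR adjusted p = 0.000527). PHLDA2, known as an inhibitor of placental growth, was at 0.0169 and 0.00722 in cluster 1 and at 0.0475 and 0.0463 in cluster 3, a rise of 1.98 (edgeR adjusted p = 0.00294). RB1, the retinoblastoma protein, was at 0.294 and 0.294 in cluster 3 and at 0.537 and 0.602 in cluster 12, a rise of 1.05 (edgeR adjusted p = 4.33e-05). The genes named for these steps are all ones that rose, and those that fell are not named. From cluster 8 to cluster 1, 8 of 20 identifiers of the list were higher and 3 lower, beside 17.2% and 16.9% of all genes.

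In cluster 9, DIRAS3, a small GTPase known as a growth inhibitor, was at 0.321 and 0.428 UMIs per 10000, against means of at most 0.0581 in every other cluster. It was 5.48 ± 0.172 higher than in the myogenic clusters on the log2 scale (edgeR adjusted p = 1.53e-05) and 3.34 higher than in cluster 7 (edgeR adjusted p = 0.000183). IGF2R, the receptor that clears IGF2, was at 1.03 and 1.08 in cluster 9 and at 6.57 and 6.58 in cluster 7, a log2 ratio of −2.13 (edgeR adjusted p = 7.53e-06). Against the myogenic clusters, 4 of 24 identifiers of the list were higher and 10 lower in cluster 9, with a median of −0.52, beside 28.9% and 27.6% of all genes.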

How the data were processed

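Reads were mapped by the authors with Cell Ranger 3.0.2 to ARS-UCD1.2, UMIs were counted from uniquely mapped reads, and both libraries were combined at equal mapped depth. The deposited counts are whole numbers of UMIs per gene and cell. The deposited table of cluster averages also holds the authors' fold changes and p-values, which were not used. The averages, multiplied out to UMI sums, fixed the cluster of every cell and differed from the sums over these cells for 0 of 252240 pairs of gene and cluster. The library was read from the barcode suffix.

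The 8 genes, the other imprinted genes and the marker lists were chosen with earlier results of these data known. Beyond the 8 genes, the genes set to be named in each direct comparison were the 2 called genes of the imprinted list with the largest change in each direction. The text gives some of them. Also set were the 3 genes with the highest correlation to each of the 8, of which the text gives the first. Levels were put on a log2 scale with a pseudocount of 0.01. Tests used edgeR 4.0.16 in R 4.3.3 with filterByExpr, on 2 sums against 2, adjusted over all genes. On simulated counts with 200 genes changed 3-fold, 82% were recovered for cluster 9 against all other cells over 12992 genes and 88% for cluster 12 against 3 over 10627 genes. In these 2 simulations 27 and 20 unchanged genes were called as well. This is a larger share of the calls than the threshold on the adjusted p-value aims at. Calls close to the threshold are thus less certain than their adjusted p-values state. Only 3-fold changes were simulated, so the recovery of smaller changes was not tested. Sums of a cluster and its comparison come from the same libraries. The correlation of their log2 ratios of replicate 1 to replicate 2 ran from 0.167 to 0.669 over the clusters, so the library number pairs them, and a fit with it as a block is an alternative. Doublets were kept. Scrublet's automatic threshold marked 0 and 1 cells, and the alternative left out the cells of highest score, 847 and 736. Other alternatives were DESeq2 1.42.0, other scalings, no filter on low counts, cells under 2000 UMIs left out, cells assigned by profile, equal weights of clusters and each library left out. The cells with 5 or more DLK1 UMIs, the doublets and clusters 3 and 12 in the correlations were left out as alternatives chosen after seeing the data. Intervals are exact at 95% and cover counting error only.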

Additional observations from a re-analysis of the deposited data

How the results depend on the processing

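Over 182 tests of the 8 genes, 100 calls were made and 69 held in each of the 13 alternatives with a test. A block for the library, by which the sums are paired, gave 107 calls, 7 of them gained and 0 lost. Over all genes the block also gave more calls in most comparisons. From cluster 5 to cluster 4, 1899 genes were then higher and 2080 lower, against 1036 and 823. Between clusters 9 and 7 there were 3214 and 2839, against 3229 and 2864. The shares of all genes given above come from the fit without the block. DESeq2 made 87 calls, no scaling 106 and each library left out 79 to 88. Over these alternatives the log2 ratio changed sign in 2 of the 100 called tests, PEG10 and NDN in cluster 7, and in 43 of the 82 tests that were not called, of which SGCE and GRB10 in cluster 7 are given as examples. With 1 library alone and no test, the log2 ratio of DLK1 in cluster 2 to all other cells was −0.18 without replicate 1 and 1.56 without replicate 2, against 0.81. In cluster 7, whose median of all genes moved from −0.12 with TMM to 0.52 without it, PEG10 was 0.07 (against −0.57) and NDN 0.05 (against −0.60) without scaling, and NDN 0.14 with equal weights of clusters. There SGCE (0.25) was −0.14 without replicate 2 of the cluster and −0.22 without replicate 2 throughout, with up to 0.55 without replicate 1 throughout. GRB10 (0.17) was −0.10 without cells under 2000 UMIs, −0.08 without replicate 1 of the cluster, −0.04 without replicate 1 throughout and 0.47 without replicate 2 of the cluster.

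The 3 genes higher in cluster 5 than 8 became 1 with DESeq2 and with cells assigned by profile, and the gene lower in cluster 4 than 5 became 0 without the filter. The 2 genes higher in cluster 2 than 4 became 1 with DESeq2, without the filter and without the cells of high DLK1. Between clusters 9 and 7, 2 higher became 1 without scaling and without cells under 2000 UMIs, and 3 lower became 5 without scaling and 1 with DESeq2. With 1 library left out, the counts were 20 to 29 higher and 29 to 32 lower against all other cells, 1 to 2 higher and 0 to 1 lower for 5 against 8, 0 to 1 lower for 4 against 5, 1 to 2 higher for 2 against 4, and 1 to 2 higher and 1 to 3 lower for 9 against 7. Without TMM, the share of higher among all calls moved from 40.9% to 74.6% in cluster 7, from 53% to 29.3% for 9 against 7 and from 53.8% to 38% for 12 against 3. Against all other cells it moved from 43.8% to 28.9% in cluster 1, 49.1% to 32.4% in cluster 3, 50% to 39.6% in cluster 5, 52.8% to 41.8% in cluster 6, 43.3% to 56.7% in cluster 10, 48.3% to 58.9% in cluster 11, 45.6% to 32% in cluster 12, 34.7% to 47.6% in cluster 13, 47.8% to 28.1% in cluster 14 and 14.3% to 0% in cluster 15. The median of all genes moved from −0.00 to −0.14 in cluster 3, −0.03 to 0.08 in cluster 10, −0.09 to −0.27 in cluster 12 and −0.37 to −0.15 in cluster 15. What caused these changes and the lost calls was not tested. Cluster 15 gave no value without cells under 2000 UMIs. The low counts of DLK1 and PEG3 limit what these libraries resolve.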
